A study of Mus musculus with 12 samples.

Results

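Trp53, the gene for the tumour suppressor p53, and 9 of its target genes (Mdm2, Ccng1, Cdkn1a, Plk2, Zmat3, Bax, Phlda3, Sesn2 and Ddit4l) were compared between totipotent potential stem (TPS) cells and extended pluripotent stem (EPS) cells of the mouse. The 10 genes were chosen by name, as the transcription factor and well-known targets from several branches of its response, with earlier results of these data known. They are 10 of the 55401 genes in the count files, and all 10 were among the 17468 genes that passed the filter on low counts and were tested. The question was whether the p53 pathway differed at the RNA level between the cell states, since the study examined p53 as a possible regulator of the totipotent state. By qPCR, the study saw no decrease of totipotency markers when p53 was knocked down while TPS cells were induced.

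RNA enriched on oligo(dT) beads was sequenced as paired-end reads from 3 TPS lines and 3 EPS lines, each as 2 technical replicates, which gave 12 libraries. TPS cells grew on feeder cells in a medium with 4 small molecules, an inhibitor of histone deacetylases (VPA), an agonist of the retinoic acid receptor gamma (CD1530), an inhibitor of the histone methyltransferase DOT1L (EPZ004777) and an inhibitor of the kinase GSK3 (CHIR-99021). The labels call this medium VCED and the methods of the study call it CPEC. EPS cells grew on feeder cells in LCDM medium, so medium and cell state cannot be told apart. In the methods the TPS feeders were mouse embryonic fibroblasts inactivated with mitomycin C. Whether each sequenced TPS line came from EPS cells or from 2-cell embryos, and the strain, sex and passage of the lines, are not given in the sources used here, and p-values measure the spread between these lines. No line was depleted of p53, so no sample tests its removal.

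p53 is made in most cells and is mainly controlled as a protein: MDM2, a ubiquitin ligase and itself a product of a p53 target gene, marks it for degradation until damage or another stress releases it. Freed p53 binds as a tetramer to response elements built of a pair of decamers, or 10-base units, and raises genes for cell cycle arrest, cell death, DNA repair, metabolism and its own inhibition. The RNA of its targets is therefore often read as a sign of its activity, although most targets answer to other factors too. In mouse embryonic stem cells p53 has been described as an activator of Dux, a transcription factor of the 2-cell stage.

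The response element was searched by its letters in the promoters of the members, from 250 bases before to 50 bases after each annotated start (RefSeq, GRCm38.p6). Of the 10 genes, 9 had a promoter in that table, with 10 promoters in all because Cdkn1a has 2 starts. A match was a pair of p53 decamers at most 13 bases apart, with the CNNG centre of each decamer intact and at most 2 other mismatches over the 20 bases, and the decamer reads the same on both strands. Such a match lay in 3 of the 10 promoters, 1 each of Cdkn1a, Ccng1 and Bax, where 4.09% of all 32851 promoters held one. These stretches are shown because they are where the letters of the p53 element stand closest to the start of a member. Capitals mark the centres of the decamers, and each stretch is printed 5′ to 3′ on the strand of its gene.
Cdkn1a, chr17:29090906-29090947, plus strand: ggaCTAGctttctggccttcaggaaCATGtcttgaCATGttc
Ccng1, chr11:40755462-40755486, minus strand: aggCCAGaCCTGcccgggCAAGcct
Bax, chr7:45467079-45467114, minus strand: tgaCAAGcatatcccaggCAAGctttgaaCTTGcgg

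The Cdkn1a stretch lay 73 to 32 bases upstream of the more distal of its 2 annotated starts and held 3 decamers. Its first and second decamer pair with 0 mismatches but do not adjoin, since up to 13 bases between them were allowed. Only 0.0731% of all promoters held a pair with 0 mismatches. The Ccng1 stretch lay 200 to 176 bases upstream and its best pair had 1 mismatch, which 0.627% of all promoters reached or bettered. The Bax stretch lay 216 to 181 bases upstream and its best pair had 2 mismatches. A match of letters is a description of these windows and not a measure of binding.

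The 3 members that passed the test, Plk2, Mdm2 and Sesn2, had no such pair in their promoters. The bases directly upstream of their starts are shown for comparison, up to 250 bases, with any single decamer of at most 1 mismatch in capitals. The Sesn2 stretch is cut to 205 bases because the GENCODE start lies further upstream than the RefSeq start.
Plk2, chr13:110394794-110395043, plus strand: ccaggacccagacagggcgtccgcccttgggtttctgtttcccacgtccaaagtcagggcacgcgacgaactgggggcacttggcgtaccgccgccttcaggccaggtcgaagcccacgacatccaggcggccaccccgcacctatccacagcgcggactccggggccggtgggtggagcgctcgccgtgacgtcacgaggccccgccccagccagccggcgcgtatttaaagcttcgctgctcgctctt
Mdm2, chr10:117710759-117711008, minus strand: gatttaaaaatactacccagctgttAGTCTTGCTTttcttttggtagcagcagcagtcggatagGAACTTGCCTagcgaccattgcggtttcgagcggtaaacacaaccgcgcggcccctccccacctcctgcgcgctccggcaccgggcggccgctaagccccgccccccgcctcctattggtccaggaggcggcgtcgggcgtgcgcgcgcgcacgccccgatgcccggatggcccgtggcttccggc
Sesn2, chr4:132510502-132510706, minus strand: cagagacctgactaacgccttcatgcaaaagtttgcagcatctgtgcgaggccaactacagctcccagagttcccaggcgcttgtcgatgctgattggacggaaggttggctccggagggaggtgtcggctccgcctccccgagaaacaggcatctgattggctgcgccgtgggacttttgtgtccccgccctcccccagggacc

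Mdm2 held 2 single decamers, which began 225 and 186 bases upstream of the start, and Plk2 and Sesn2 held none. A single decamer of this kind was common, with at least 1 in the 250 bases before the start in 44.7% of all promoters. The G and C content was 68.4% for Plk2, 65.6% for Mdm2 and 61% for Sesn2. That these letters are absent from a window says nothing of elements elsewhere, and in Mdm2 the well-known p53 elements lie within the first intron, outside this window.

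Plk2 and Mdm2 on the one side and Sesn2 on the other were the members that differed between the groups. In TPS lines Plk2 and Mdm2 were higher than in EPS lines, Sesn2 was lower, and the other 7 members, Trp53 and Cdkn1a among them, did not pass the test. The test was edgeR's quasi-likelihood test on the 6 lines, with p-values adjusted by the Benjamini-Hochberg method over all 17468 tested genes. Thus 2 of 10 members were called higher, where 14.4% of all tested genes were, and 1 of 10 was called lower, where 7.34% of all tested genes were. Each count was within 1 gene of what that background share amounts to in 10 genes. The median log2 fold change (TPS over EPS) was 0.10 over the members and -0.0038 over all tested genes, and 5 members had a positive and 5 a negative value. The median over the members rested on single lines, at 0.28 without EPS line 1, 0.16 without TPS line 2, 0.0036 without EPS line 2 and -0.014 without EPS line 3. Over the 12 alternatives that kept all lines it ran from 0.066 to 0.25, the highest with library size alone as the scale, where the median over all tested genes was 0.14. With DESeq2 it lay below the median over all tested genes, at 0.088 against 0.20 on 6 lines and 0.13 against 0.22 on 12 libraries. Without a filter on low counts it also lay below, at 0.072 against 0.18. In the other alternatives that kept all lines it lay above. Without overlap between the lines, 4 members (Mdm2, Ccng1, Plk2 and Phlda3) were higher in every TPS line than in every EPS line, where 23.6% of all tested genes were, and 1 (Sesn2) was lower in every TPS line, where 19.1% were.

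**Figure D1:**
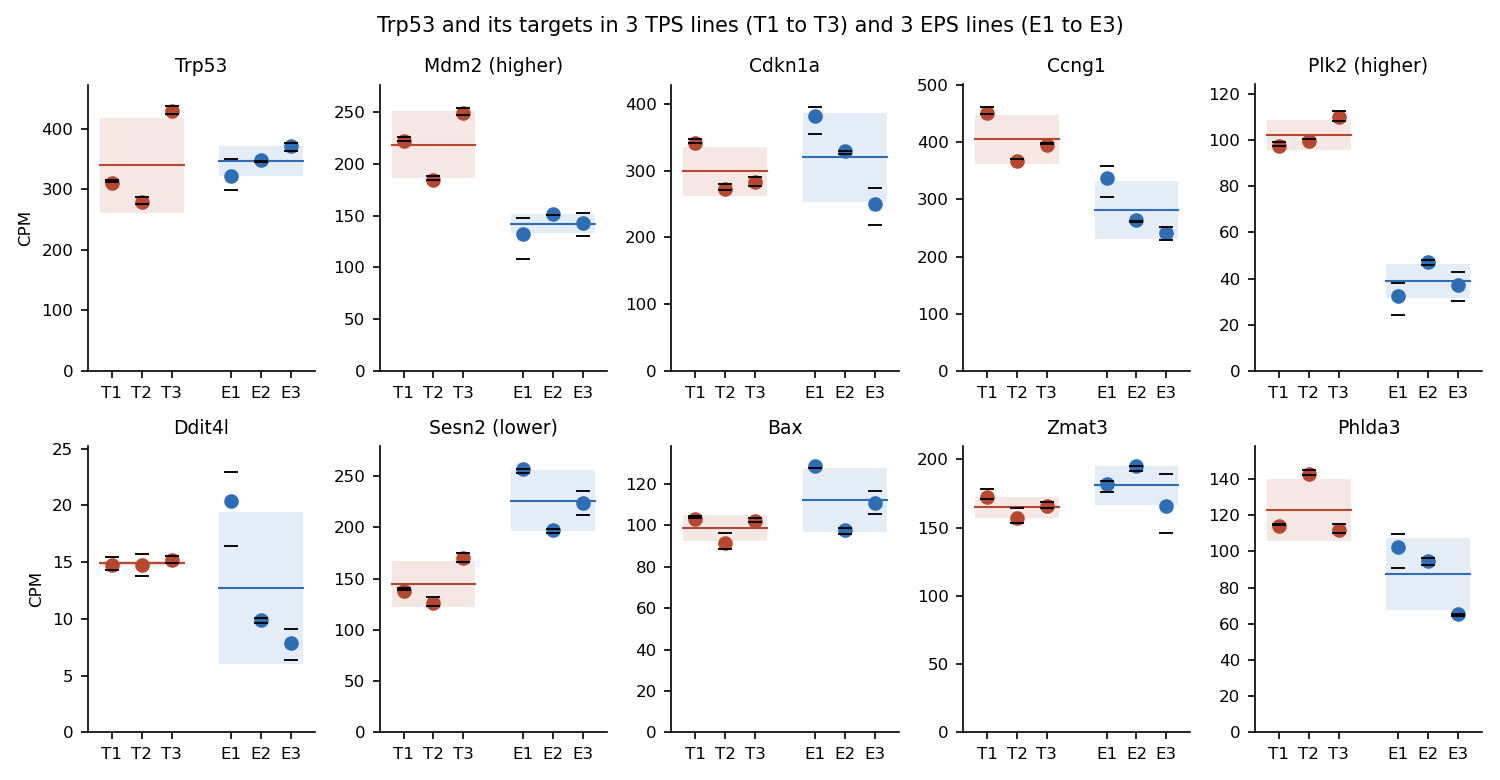
Counts per 1000000 (CPM, y axis from 0) of the 10 genes in TPS lines 1 to 3 (T1 to T3, red) and EPS lines 1 to 3 (E1 to E3, blue). Dots are lines with both technical replicates summed, black dashes the single technical replicates, horizontal lines the group means and bands 1 SD (n = 3 lines). Plk2 and Mdm2 are higher in all 3 TPS lines, Sesn2 is lower in all 3, and Trp53 overlaps between the groups.

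Trp53 itself was measured at 310, 279 and 429 CPM in TPS lines 1 to 3 and at 322, 348 and 372 CPM in EPS lines 1 to 3, where CPM are counts per 1000000, scaled for the composition of each line. TPS line 3 was the highest and TPS line 2 the lowest of all 6 lines, so the TPS lines enclosed the EPS lines. The means were 340 ± 78.9 CPM (SD, n = 3) and 347 ± 24.9 CPM, and the log2 fold change was -0.03 ± 0.18 (SE), with a 95% interval from -0.45 to 0.38 (edgeR, adjusted p = 0.915). With upper quartile factors or library size alone as the scale the value was just above 0, and it was not called on any scale. Trp53 lies on chr11:69580359-69591873 (plus strand, GENCODE M21 on GRCm38). The RNA level does not show how much p53 protein the cells held.

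Among the genes that restrain p53, Mdm2 (chr10:117688875-117710758, minus strand) stood at 222, 185 and 249 CPM in TPS lines and at 133, 152 and 143 CPM in EPS lines. Every TPS line was above every EPS line, with the smallest gap between TPS line 2 and EPS line 2. The ratio of the means was 1.53 and the log2 fold change was 0.62 ± 0.15 (SE), with a 95% interval from 0.28 to 0.96 (edgeR, adjusted p = 0.0236). The call did not hold when TPS line 1, TPS line 3 or any single EPS line was left out, with an adjusted p of 0.0574 to 0.0841 and a log2 fold change of 0.51 to 0.64. It was kept without TPS line 2, where the value was 0.72.

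Ccng1 (chr11:40748552-40755311, minus strand) encodes cyclin G1, which brings a phosphatase to MDM2 and so also works against p53. Its values were 451, 368 and 396 CPM in TPS lines and 338, 263 and 241 CPM in EPS lines. All 3 TPS lines were again above all 3 EPS lines, though TPS line 2 and EPS line 1 were close. The log2 fold change of 0.53 ± 0.16 (SE), with an interval from 0.15 to 0.91, narrowly missed the threshold (edgeR, adjusted p = 0.0562). Without EPS line 1, the highest of that group, Ccng1 was called (0.66, adjusted p = 0.0292), and it was called in 8 of 12 alternatives that kept all lines. Among these 8 were both fits on 12 libraries, which count technical replicates as if they were lines.

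For cell cycle arrest, Cdkn1a (chr17:29090976-29100727, plus strand) encodes p21, the inhibitor of cyclin-dependent kinases that is the best known mediator of arrest by p53. It was measured at 342, 273 and 283 CPM in TPS lines and at 382, 329 and 250 CPM in EPS lines. EPS lines held both the highest and the lowest value. The log2 fold change was -0.10 ± 0.18 (SE), with an interval from -0.52 to 0.33 (edgeR, adjusted p = 0.739). Of its exon bases, 7.68% are shared with a gene on the opposite strand, AC167363.2, which had 174 counts in all libraries against 64775 for Cdkn1a, and the libraries did not mark strand.

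Plk2 (chr13:110395046-110400844, plus strand), a polo-like kinase that acts in centriole duplication and in checkpoints after stress, showed the widest difference among the members. It stood at 97.2, 99.5 and 109.7 CPM in TPS lines and at 32.5, 47.0 and 37.3 CPM in EPS lines. The lowest TPS line was about as far above the highest EPS line as the latter was above 0. The ratio of the means was 2.62 and the log2 fold change was 1.39 ± 0.17 (SE), with an interval from 1.00 to 1.78 (edgeR, adjusted p = 0.00292). Plk2 was called higher in all 18 alternatives, with log2 fold changes from 1.25 to 1.60.

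Zmat3 (chr3:32334792-32366014, minus strand), a zinc finger protein that binds RNA and acts on splicing and stability of transcripts, had 172, 157 and 166 CPM in TPS lines and 182, 195 and 166 CPM in EPS lines. TPS line 3 and EPS line 3 were practically level, and TPS line 1 lay above EPS line 3. The log2 fold change was -0.13 ± 0.12 (SE), with an interval from -0.41 to 0.15 (edgeR, adjusted p = 0.466).

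For cell death, Bax (chr7:45461697-45466898, minus strand), which forms pores in the outer mitochondrial membrane, was measured at 102.9, 91.4 and 102.0 CPM in TPS lines and at 128, 97.6 and 111 CPM in EPS lines. EPS line 2 lay below TPS lines 1 and 3. Bax shares 192 exon bases (12.2%) with Gm45808 on the same strand, which was listed at 0 counts. The log2 fold change was -0.19 ± 0.14 (SE), with an interval from -0.51 to 0.14 (edgeR, adjusted p = 0.379). Phlda3 (chr1:135766119-135769136, plus strand), whose product holds back the survival kinase AKT, had 114, 143 and 112 CPM in TPS lines and 103, 94.9 and 65.3 CPM in EPS lines. Every TPS line was above every EPS line, with the gap between TPS line 3 and EPS line 1 smaller than the spread within either group. The log2 fold change was 0.49 ± 0.20 (SE), with an interval from 0.03 to 0.94 (edgeR, adjusted p = 0.114).

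For metabolism and growth, Sesn2 (chr4:132492032-132510501, minus strand) encodes sestrin 2, which senses leucine and restrains the growth kinase complex mTORC1, and which other stress factors raise as well. It was lower in TPS lines, at 138, 126 and 170 CPM against 257, 198 and 223 CPM in EPS lines. No TPS line reached the lowest EPS line. The mean was 1.56-fold lower, and the log2 fold change was -0.64 ± 0.16 (SE), with an interval from -1.02 to -0.26 (edgeR, adjusted p = 0.0297). The call did not hold without TPS line 1, TPS line 2, EPS line 1 or EPS line 3 (adjusted p = 0.0616 to 0.0904), nor with library size alone as the scale (-0.49, adjusted p = 0.0619).

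Ddit4l (chr3:137621612-137628333, plus strand), another inhibitor of mTORC1, was the lowest of the members. Its values were 14.8, 14.7 and 15.2 CPM in TPS lines and 20.4, 9.89 and 7.91 CPM in EPS lines. The TPS lines were nearly level while EPS line 1 was over every TPS line and EPS lines 2 and 3 under them. The SD was 1.58% of the mean in TPS lines and 52.7% in EPS lines, and the log2 fold change was 0.23 ± 0.35 (SE) (edgeR, adjusted p = 0.682).

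**Figure D2:**
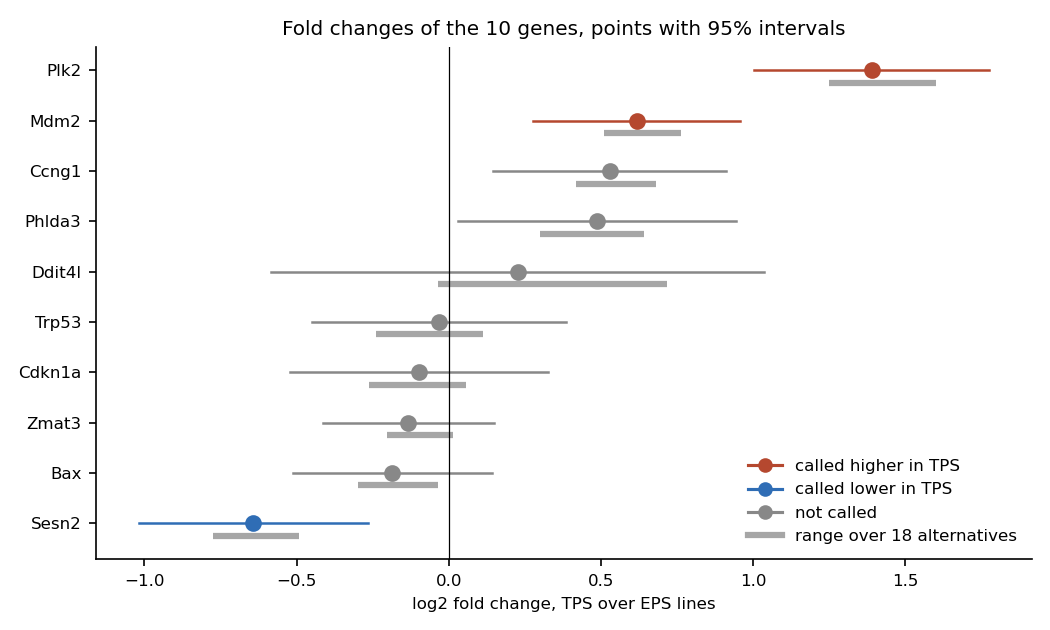
Log2 fold change of each of the 10 genes (x axis, TPS over EPS lines) from edgeR on 6 lines, as points with 95% intervals, red where called higher, blue where called lower and grey where not called. The thick bar under each point spans the values over 18 alternatives. Plk2 lies at 1.39, Mdm2 at 0.62 and Sesn2 at -0.64, and the bars of Trp53, Cdkn1a, Zmat3 and Ddit4l cross 0.

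Per length of their exons, the members were ordered differently in the 2 groups. As CPM per kilobase of exon, TPS lines had Ccng1 first at 115 ± 12.1 (SD, n = 3), then Cdkn1a at 84.3 ± 10.4, Trp53 at 83.9 ± 19.5 and Phlda3 at 78.8 ± 10.98, of which the lines of neighbours among the latter 3 overlapped. Bax followed at 62.7, Mdm2 at 43.0, Sesn2 at 41.7, Plk2 at 22.7, Zmat3 at 14.4 and Ddit4l at 5.11, and of these neighbours only Mdm2 and Sesn2 overlapped. In EPS lines the order was Cdkn1a at 90.1, Trp53 at 85.8, Ccng1 at 79.9, Bax at 71.3, Sesn2 at 65.0 and Phlda3 at 56.2, where each gene overlapped with the next. Below them, without overlap, came Mdm2 at 28.0, Zmat3 at 15.8, Plk2 at 8.67 and Ddit4l at 4.37. Thus Plk2 stood above Zmat3 in TPS lines and below it in EPS lines. These levels assume that the annotated exons are all in use.

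The technical replicates of a line agreed closely in 4 lines, where the members' values in the second were 0.92 to 1.14 times those in the first. In EPS line 1 and EPS line 3 they differed more. Plk2 was at 24.0 and 37.9 CPM in the replicates of EPS line 1 and at 30.5 and 42.8 CPM in those of EPS line 3. In EPS line 1, 9 of 10 members were higher in the second replicate, and in EPS line 3, 7 of 10 were. The share of all genes that were higher there was not counted. Over all genes, too, the replicates differed most in these lines. The chi-square of their counts per degree of freedom was 9.61 in EPS line 1 and 22.3 in EPS line 3, against 2.58 to 3.83 in the other lines. All of these Plk2 values were under the lowest TPS library at 97.6 CPM. With DESeq2 on the 6 lines the same 3 members were called, Plk2 (adjusted p = 1.9e-08) and Mdm2 (0.0166) higher and Sesn2 (0.0150) lower, where 16.0% of all genes with an adjusted p were higher and 7.71% lower. With edgeR on the 12 libraries, which counts technical replicates as if they were lines, Mdm2, Ccng1, Plk2 and Phlda3 were called higher and Sesn2 lower, where 26.2% and 23.3% of all tested genes were.

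**Figure D3:**
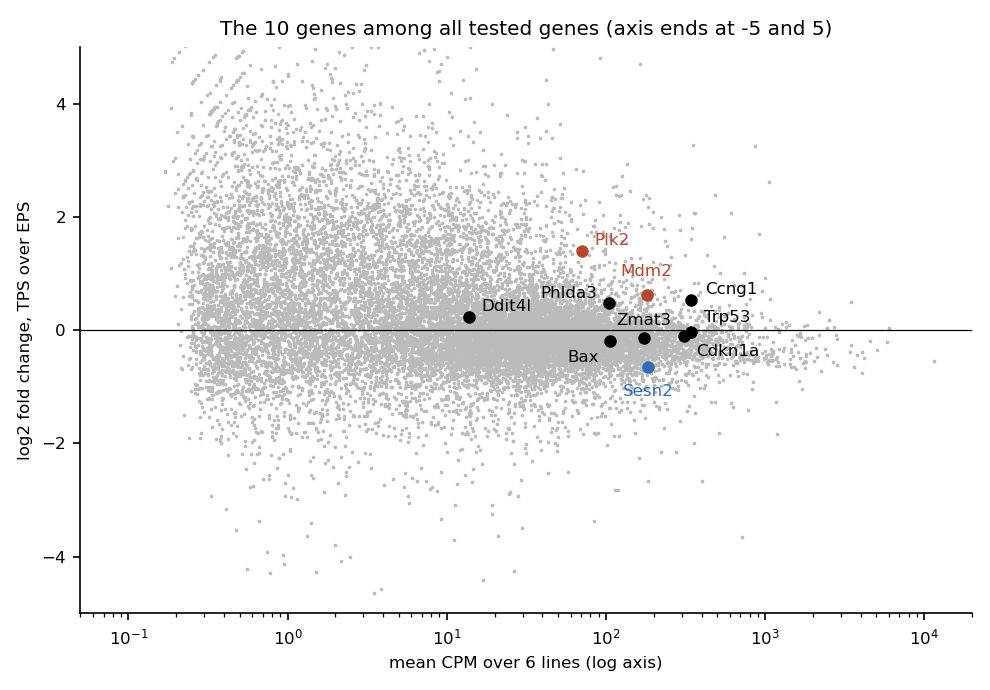
Log2 fold change (y axis, TPS over EPS lines) against mean CPM over the 6 lines (x axis, log scale) for all 17468 tested genes in grey and the 10 genes as labelled dots. The y axis ends at -5 and 5 and leaves out 371 genes. Plk2 at 1.39 lies highest of the 10, and the other 9 lie between -0.64 and 0.62.

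Over the 6 lines no member followed Trp53 closely. Pearson's r between Trp53 and a member, on log2(CPM + 1), ran from -0.49 (Phlda3) to 0.40 (Sesn2), with Mdm2 at 0.23 and Cdkn1a at -0.29. Among 9340 genes with a mean of at least 10 CPM, the 5 protein-coding genes most like Trp53 were Mllt6 (r = 0.99), Polr2a (0.98), Sall4 (0.97), Ccdc92b (0.96) and Eif3b (0.95). Like Trp53, Polr2a was highest in TPS line 3 (641 CPM) and lowest in TPS line 2 (435 CPM). These values rest on 6 lines and on genes picked out of 9340 for their r, and they share the libraries and the scale of each line.

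The other genes of the pathway came from a list of 45 further p53 targets, all of which were tested. In TPS lines 4 of them were higher and 5 lower (8.89% and 11.1%), against 14.4% and 7.34% of all tested genes, and their median log2 fold change was -0.04 against -0.0038. That median was -0.13 without EPS line 3, -0.073 without TPS line 1, -0.064 without TPS line 3 and -0.010 without EPS line 1, and it turned to 0.019 with upper quartile factors and to 0.11 with library size alone as the scale (0.049 and 0.14 over all tested genes). It also turned to 0.019 with technical replicate 1 alone (-0.019 over all tested genes). With at least 1 CPM in 3 lines, where 44 were tested, it was 0.0073 (-0.016 over all tested genes). With DESeq2 on the 6 lines it was -0.051 (0.20 over all tested genes). The 4 higher genes were Fas, Dram1, Ptprv and Lif, and the 5 lower genes were Ddb2, Gdf15, Fdxr, Tigar and Psrc1. All 9 had lines that did not overlap between the groups. Of the 45, 7 were higher and 7 lower in every TPS line than in every EPS line (15.6% each, against 23.6% and 19.1% of all tested genes).

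Among 7 targets of cell cycle arrest, only Ptprv, a receptor-type tyrosine phosphatase, was called (14.3% higher, against 14.4% of all tested genes). It stood at 34.0, 13.3 and 32.5 CPM in TPS lines and at 4.28, 7.89 and 7.88 CPM in EPS lines, with a log2 fold change of 1.99 ± 0.41 (SE) (edgeR, adjusted p = 0.0147). The most abundant of the others, Gtse1, a microtubule protein of G2 phase, had a log2 fold change of -0.04 (interval -0.33 to 0.25). Sfn, the 14-3-3 sigma protein that holds cells in G2 phase, had -0.48 with a wide interval from -1.48 to 0.52.

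Among 13 targets of cell death, Fas and Dram1 were higher (15.4%, against 14.4% of all tested genes). Fas, the death receptor, had 8.69, 7.70 and 7.09 CPM in TPS lines and 1.40, 1.44 and 2.50 CPM in EPS lines, a log2 fold change of 2.13 ± 0.33 (SE) (edgeR, adjusted p = 0.00632). Dram1, a lysosomal membrane protein of autophagy, had 14.2, 4.87 and 8.48 CPM against 0.979, 2.00 and 2.704 CPM, a log2 fold change of 2.27 ± 0.51 (SE) (adjusted p = 0.0202). Both were low genes in these cells, and each was highest in TPS line 1 and lowest in EPS line 1, the lines with the highest and the lowest summed level of fibroblast markers (6064 and 327 CPM). The part of fibroblast RNA in these values was not tested. The most abundant uncalled genes were Trp53inp1, a stress protein of the nucleus and of autophagy (0.03, interval -0.31 to 0.37), and Ei24, a membrane protein of the endoplasmic reticulum (0.20, interval -0.09 to 0.49).

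Among 5 targets of DNA repair and nucleotide supply, Ddb2, which recognises ultraviolet damage, was lower at 2.52, 4.04 and 2.67 CPM against 12.6, 6.68 and 5.41 CPM (log2 fold change -1.42 ± 0.40 SE, edgeR, adjusted p = 0.0407). This 1 gene of 5 was 20% of the list, against 7.34% of all tested genes, and it was not called in 4 of the 12 alternatives that kept all lines, among them limma-voom (adjusted p = 0.0513), technical replicate 1 alone (0.0625) and library size alone (0.0536). Its partner in damage recognition, Xpc, had -0.37 (interval -0.71 to -0.02, adjusted p = 0.118), and the nuclease Ercc5 had -0.14 (interval -0.62 to 0.33).

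Among 11 targets of metabolism and stress, 3 were lower (27.3%, against 7.34% of all tested genes). With library size alone as the scale 1, Gdf15, was lower, where 4.26% of all tested genes were. On that scale Tigar and Fdxr had an adjusted p of 0.0530 and 0.0828 (edgeR). Tigar, an enzyme that lowers glycolytic flux, had 63.1, 51.6 and 61.8 CPM in TPS lines and 105, 76.3 and 117 CPM in EPS lines (log2 fold change -0.76 ± 0.18 SE, edgeR, adjusted p = 0.0256). Gdf15, a secreted stress factor, had 5.72, 5.99 and 5.08 CPM against 12.7, 11.9 and 9.42 CPM (-1.02, adjusted p = 0.0208). Fdxr, a mitochondrial reductase that passes electrons to ferredoxin, had 9.59, 14.8 and 13.8 CPM against 27.7, 21.7 and 18.3 CPM (-0.83, adjusted p = 0.0473). The most abundant uncalled genes were Ddit4, an mTORC1 inhibitor that varied from 88.7 to 719 CPM (-0.74, interval -2.11 to 0.64), and Rps27l, a ribosomal protein (-0.06, interval -0.47 to 0.35).

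Among 9 targets of feedback and signalling, 1 was higher and 1 lower (11.1% each, against 14.4% and 7.34% of all tested genes). Lif, the cytokine that sustains mouse pluripotent cells, had 37.3, 22.2 and 34.0 CPM in TPS lines and 8.29, 18.8 and 15.8 CPM in EPS lines (log2 fold change 1.12 ± 0.33 SE, edgeR, adjusted p = 0.0475). Psrc1, a spindle protein, had 76.8, 104 and 93.2 CPM against 154, 147 and 139 CPM (-0.68 ± 0.15 SE, adjusted p = 0.0167). The receptor Epha2 (0.32, interval -0.75 to 1.40) and the ubiquitin ligase Cop1 (-0.16, interval -0.44 to 0.13) were the most abundant uncalled genes.

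Of these 9 calls, those of Fas and Ptprv held when any single line was left out, and that of Psrc1 was lost only without TPS line 3 (adjusted p = 0.0548). The calls of Dram1, Ddb2 and Gdf15 were each lost without TPS line 1, TPS line 3, EPS line 1 or EPS line 2, with adjusted p up to 0.0634, 0.121 and 0.0740. That of Tigar held only without EPS line 2 (up to 0.0715), that of Lif only without TPS line 2 (up to 0.131), and that of Fdxr was lost without any one line (up to 0.118). Of the 12 alternatives that kept all lines, the call of Fdxr was lost in 5 (adjusted p = 0.0528 to 0.107), that of Lif in 2 (0.0881 and 0.0996) and those of Dram1 and Tigar in 1 each (0.0609 and 0.0530).

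**Figure D4:**
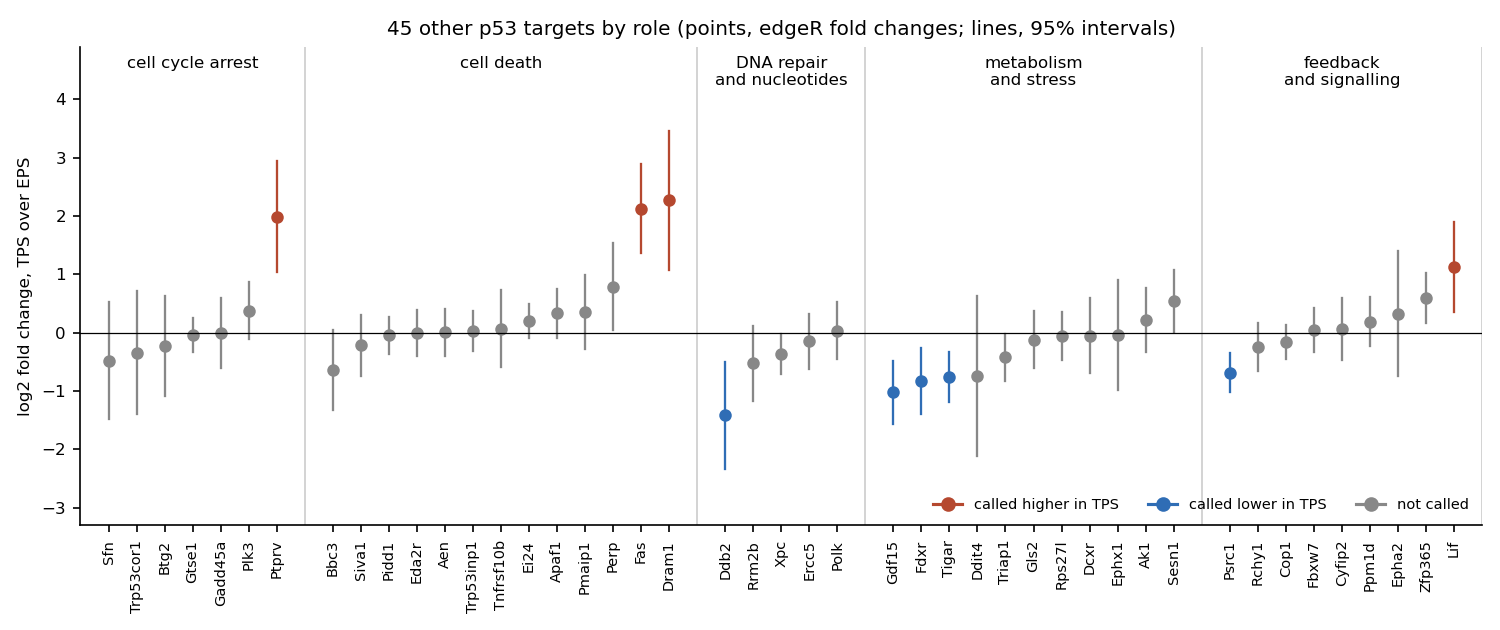
Log2 fold change (y axis, TPS over EPS lines, edgeR) of 45 other p53 targets, grouped by role and ordered within each group, with 95% intervals. Red points are called higher (4), blue points lower (5) and grey points not called (36). The called genes of metabolism and stress lie between -1.02 and -0.76 and those of cell death at 2.13 and 2.27.

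Upstream of p53, 13 regulators were tested, of which 2 were higher and 1 lower in TPS lines (15.4% and 7.69%, against 14.4% and 7.34% of all tested genes). Cdkn2a, whose 2 products are p16 and ARF, the latter an inhibitor of MDM2, had 41.1, 74.4 and 48.7 CPM in TPS lines and 31.6, 25.5 and 20.98 CPM in EPS lines (log2 fold change 1.07 ± 0.26 SE, edgeR, adjusted p = 0.0248). The counts do not separate its 2 products. Hipk2, a kinase of p53, had 22.04, 18.9 and 21.1 CPM against 9.96, 15.4 and 11.6 CPM (0.75 ± 0.21 SE, adjusted p = 0.0438). Prkdc, the catalytic subunit of the DNA-dependent kinase, was lower at 51.4, 45.3 and 51.9 CPM against 66.6, 71.5 and 71.7 CPM (-0.50 ± 0.13 SE, adjusted p = 0.0292). The call of Cdkn2a was lost without TPS line 2, TPS line 3, EPS line 2 or EPS line 3 (adjusted p up to 0.0730), that of Hipk2 held only without EPS line 2 (up to 0.121) and that of Prkdc only without EPS line 1 (up to 0.0857). Of the 12 alternatives that kept all lines, Hipk2 and Prkdc were not called in 3 each (adjusted p up to 0.0911 and 0.0998) and Cdkn2a in 1 (0.0523). Mdm4, the partner of MDM2, had -0.48 (interval -0.84 to -0.12, adjusted p = 0.0627) and Usp7, which removes ubiquitin from MDM2 and p53, had -0.48 (interval -0.87 to -0.09, adjusted p = 0.0785). Of the 13 regulators, 5 were lower in every TPS line than in every EPS line, Mdm4 and Usp7 among them, and 3 were higher (38.5% and 23.1%, against 19.1% and 23.6% of all tested genes).

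Among 19 paralogues of the members, 18 were tested, since Trp63 did not pass the filter. Of these 2 were higher and 1 lower (11.1% and 5.56%, against 14.4% and 7.34% of all tested genes). While Cdkn1a was not called, its relatives Cdkn1b (p27) and Cdkn1c (p57), inhibitors of cyclin-dependent kinases as well, went opposite ways. Cdkn1b had 16.7, 21.6 and 10.4 CPM in TPS lines and 47.4, 38.7 and 37.4 CPM in EPS lines (log2 fold change -1.34 ± 0.27 SE, edgeR, adjusted p = 0.0140). Cdkn1c had 6.47, 15.8 and 7.02 CPM against 2.94, 2.33 and 2.53 CPM (1.91 ± 0.40 SE, adjusted p = 0.0161), and its call was lost without EPS line 2 (adjusted p = 0.0574). Phlda1, a relative of Phlda3, had 6.37, 11.5 and 9.02 CPM against 1.80, 2.33 and 2.28 CPM (2.07 ± 0.32 SE, adjusted p = 0.00607). The calls of Cdkn1b and Phlda1 held without any single line, and the most abundant uncalled paralogues were Ddit4 and Mdm4, whose values stand above.

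Genes that p53 lowers through p21 and the DREAM repressor complex, mostly for division, gave 2 lower genes of 16 tested (12.5%, against 7.34% of all tested genes). With library size alone as the scale 1 was lower, where 4.26% of all tested genes were. The fits on 12 libraries, which count technical replicates as if they were lines, gave 11 lower with DESeq2 and 12 with edgeR. In those fits 16.2% and 23.3% of all tested genes were lower. Of the 16, 11 were lower in every TPS line than in every EPS line, where 19.1% of all tested genes were, but with library size alone as the scale 3 were lower and 2 higher, where 12.2% and 28.8% of all tested genes were. The median log2 fold change was -0.35, and -0.20 with library size alone, where the medians over all tested genes were -0.0038 and 0.14. Mybl2, the B-Myb transcription factor, had 533, 494 and 594 CPM in TPS lines and 1168, 1055 and 1109 CPM in EPS lines (-1.04 ± 0.13 SE, edgeR, adjusted p = 0.00325), which held without any single line. Birc5, or survivin, had 85.2, 96.9 and 93.1 CPM against 131, 117 and 118 CPM (-0.41, adjusted p = 0.0468), which was lost without any one line (up to 0.148) and in 8 of the 12 alternatives that kept all lines (up to 0.164), DESeq2 on the 6 lines among them (0.0706). The most abundant uncalled genes were Mcm5, of the replicative helicase (-0.38, adjusted p = 0.103), and Ccnb1, or cyclin B1 (-0.36, adjusted p = 0.0901).

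Duxf3, which encodes Dux, was counted in TPS lines alone, at 2.82, 6.24 and 5.47 CPM, and had 0 counts in the EPS lines. Against a floor of 3 counts in the EPS line where these weigh most (0.0979 CPM), its mean was at least 49.5-fold higher in TPS lines (edgeR, adjusted p = 0.00260), while the ratio of the Trp53 means was 0.978. The floor covers counting error only. Dux lies in an array of near-identical copies, so its reads could have been split or lost in counting.

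Both kinds of cell grew on feeder cells, and fibroblast genes were higher in the TPS libraries. Of 16 fibroblast markers, 9 were called higher in TPS lines, where 14.4% of all tested genes were, 11 were higher in every TPS line than in every EPS line, where 23.6% were, and all 16 had a positive value. Their summed level was 6064, 3392 and 3485 CPM in TPS lines and 327, 1292 and 1373 CPM in EPS lines. Without TPS line 1 the calls of Col1a2, Col5a1, Thy1, Fbn1, Twist2 and Prrx1 were lost. Without EPS line 2 those of Col1a2, Thy1, Fbn1, Twist2, Prrx1 and Fap were lost. The calls of Col1a1 and Pdgfrb held without any single line. No defining marker was at 0 in a TPS line, and Fap was at 0 in EPS line 1. The summed level of 5 pluripotent cell markers was 1496 to 1847 CPM in TPS lines and 2555 to 3200 CPM in EPS lines, and that of 5 markers of the 2-cell program was 151 to 201 CPM in TPS lines and at most 0.0979 CPM in EPS lines. In bulk RNA, fewer cells of a type and less RNA per cell cannot be told apart. The part of fibroblast RNA in the values of Plk2, Mdm2, Sesn2 and the other called genes was not tested. TPS line 1 had the highest marker sum and EPS line 1 the lowest. Of the called targets higher in TPS lines, Fas, Dram1, Ptprv and Lif were each highest in TPS line 1 and lowest in EPS line 1, and Dram1 had the order of the marker sum over all 6 lines. Mdm2 and Plk2 were lowest in EPS line 1 and highest in TPS line 3. Plk2 differed little between the TPS lines, at 97.2, 99.5 and 109.7 CPM in TPS lines 1 to 3. Of the called targets lower in TPS lines, Ddb2, Fdxr and Psrc1 were lowest in TPS line 1 and highest in EPS line 1. Sesn2 and Gdf15 were also highest in EPS line 1, with their lowest values in TPS line 2 and TPS line 3, while Tigar was lowest in TPS line 2 and highest in EPS line 3. Of the called regulators, paralogues and DREAM genes, Hipk2 was highest in TPS line 1 and lowest in EPS line 1 and Birc5 the reverse, while Cdkn2a, Prkdc, Cdkn1b, Cdkn1c, Phlda1 and Mybl2 had neither pattern. How many of all tested genes had these patterns was not counted, and the orders rest on 3 lines a group.

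**Figure D5:**
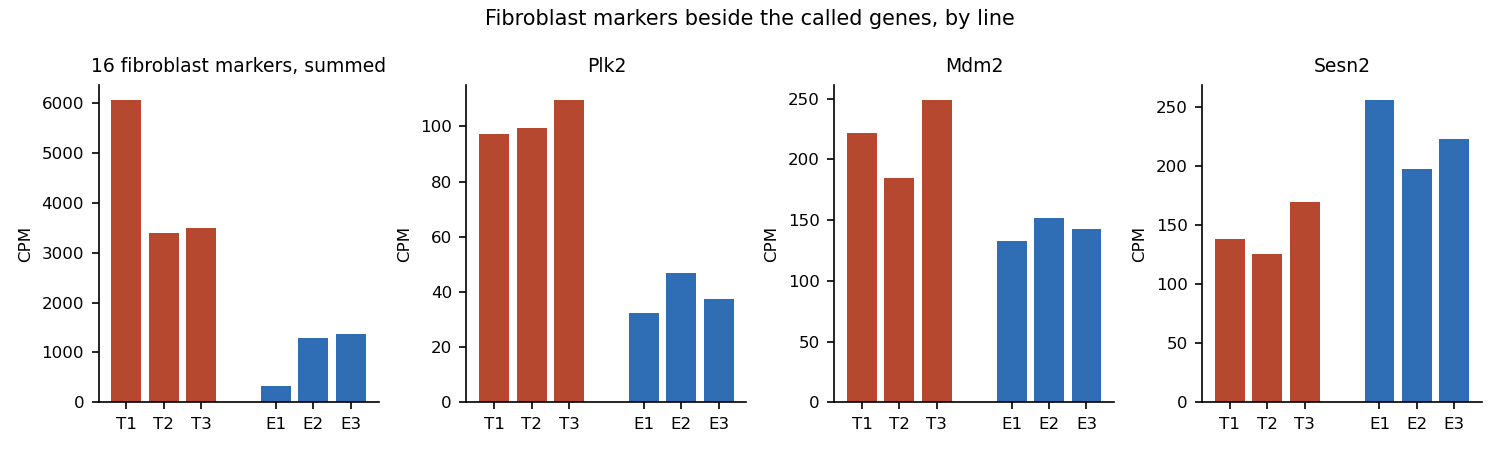
Summed CPM of 16 fibroblast markers and CPM of Plk2, Mdm2 and Sesn2 (y axes from 0) in TPS lines 1 to 3 (T1 to T3, red bars) and EPS lines 1 to 3 (E1 to E3, blue bars). Bars are single lines with technical replicates summed. The marker sum is 3392 CPM or more in TPS lines and 1373 CPM or less in EPS lines.

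Library totals ranged from 13676051 to 21821707 counts, and the lines from 29877215 to 38466294, so that the lowest member, Ddit4l, still had 278 to 625 counts in each line. No member had another gene that matched at least 50% of its longest transcript at 95% identity or more. Trp53-ps, a pseudogene, matched 11% of Trp53 and had 15 counts in all libraries.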

How the data were processed

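RNA-seq libraries from 3 TPS and 3 EPS lines, 2 technical replicates each, were grouped by the submitters' labels. The authors deposited raw counts of reads per gene. The submitters' processing notes name fastp 0.19.7, STAR 2.7.3a and build mm10. The counting tool, annotation and use of strand are not given in the sources used here, and the library protocol does not mark strand, so antisense and overlapping genes may share reads. Of 55401 gene identifiers, 55141 matched GENCODE M21 without version. Technical replicates were summed per line.

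The 6 lines were compared with edgeR 4.0.16 (quasi-likelihood test, TMM factors, filterByExpr with a minimum of 10 counts, R 4.3.3), with Benjamini-Hochberg adjustment over 17468 genes and a threshold of 0.05. CPM were counts over the product of the total counts of the tested genes and the TMM factor. The SE was the log2 fold change over the square root of F. DESeq2 1.42.0, limma 3.58.1, other scales, filters, single technical replicates, a block and leaving out each line were alternatives. The fit was tested on simulated data. Copies were sought with blastn 2.17.0.

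The members and lists were chosen with earlier results of these data known. From each list of the pathway, the marker lists left out, the text names every called gene where up to 6 were called, and the 2 uncalled genes with the highest mean CPM. Intervals are 95% intervals of the fit. Totals of 13676051 to 21821707 counts limit counting error, and since no molecular identifiers are named, several reads may come from 1 molecule.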

Additional observations from a re-analysis of the deposited data

How the results depend on the processing

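Of 18 alternatives, 12 kept all lines and 6 left out 1 line each. Members called higher numbered 2, and 4 with DESeq2 on 12 libraries, 4 with edgeR on 12 libraries, 4 with library size alone and 1 to 2 without single lines (of all tested genes, 23.7%, 26.2% and 17.1% were higher in the 3 fits with 4 members, against 14.4%). Without single lines 8.98% to 12.5% of all tested genes were higher. Members called lower numbered 1, and 0 with library size alone and 0 to 1 without single lines. Of all tested genes, 4.26% were lower with library size alone and 2.74% to 5.76% without single lines, against 7.34% in the main fit. Other p53 targets called higher numbered 4, and 10 in each fit on 12 libraries and 2 to 4 without single lines. Those called lower numbered 5, and 9 in each fit on 12 libraries, 2 with library size alone and 0 to 4 without single lines. On 12 libraries 16.2% of all tested genes were lower with DESeq2 and 23.3% with edgeR. Over all genes, 2509 were higher, and 5567 with DESeq2 and 4067 with edgeR on 12 libraries and 1617 to 2234 without single lines. In all, 1282 were lower, and 3802 and 3610 on 12 libraries, 745 with library size alone and 493 to 1047 without single lines. Library size alone moved the median log2 fold change of all genes to 0.14 and the share of higher calls from 66.2% to 80.0%, against 52.98% with edgeR on 12 libraries and 74.1%, 74.4% and 76.6% without TPS line 1, 2 or 3. Relative to that shift the reversals under library size alone stayed at or below the median of all genes: Trp53 0.11, Cdkn1a 0.057 and Zmat3 0.016 in place of -0.03, -0.10 and -0.13. Trp53 also turned to 0.022 with upper quartile factors and ran from -0.24 to 0.086 without single lines, Cdkn1a from -0.26 to 0.024 and Ddit4l from -0.035 to 0.72, none of them called. The cause was not tested, except that fits on 12 libraries count 2 samples a line. With the line number as a replicate block, 1 member was higher and 1 lower, and Mdm2 was lost (0.61, adjusted p = 0.0592). Under the block 2 other targets were higher and 4 lower, and 0 regulators were called. Over all tested genes 1714 were higher and 721 lower (9.81% and 4.13%). Same-numbered lines deviated with r = 0.02, -0.14 and 0.02, and no line was most like the line of its own number. With 3 lines a group these values cannot decide whether same-numbered lines share an origin, which is not given in the sources used here.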

Other observations

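Beyond the members, the p53 element was matched by its letters, under the same rule, in the promoters of 5 of the 35 other p53 targets that had a promoter in the table: Gadd45a, Gtse1, Rps27l, Sesn1 and Zfp365. That was 10% of their 50 promoters, where 4.09% of all promoters held a match. Together with Bax, Ccng1 and Cdkn1a these were 8 genes, with log2 fold changes (TPS over EPS lines) from -0.19 to 0.59. By edgeR 0 of the 8 passed the adjusted threshold and 3 had an unadjusted p under 0.05, and by DESeq2 on the 6 lines 0 were called. Of all tested genes, 14.4% were higher and 7.34% lower by edgeR, 37.0% had an unadjusted p under 0.05, and 16.0% were higher and 7.71% lower by DESeq2. Among the 12 alternatives that kept all lines, Ccng1 was called in 8, Zfp365 in 5 and Sesn1 in 2. Both calls of Sesn1 came from the fits on 12 libraries, which count technical replicates as if they were lines. Those fits also called Ccng1 and Zfp365. Bax, Cdkn1a, Gadd45a, Gtse1 and Rps27l were called in 0 of them. The 8 genes were picked after their values were seen, and a window of 300 bases leaves out elements in introns and further upstream.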
